A study of Mus musculus with 4 samples.

Results

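Malat1 and Neat1 are neighbouring long non-coding RNAs that stay in the nucleus, and Sfpq, Nono, Pspc1, Tardbp, Matr3 and Rbm14 encode proteins found with them. These 8 genes were examined among the 40092 rows of a gene count table from mouse lung, and all 8 were among the 16661 genes with enough counts to be tested. The set was chosen by the read counts of Malat1 and Neat1, whose levels differed between the genotypes, so their differences are described here without a test. The 6 protein genes were chosen for what their proteins do, also with earlier results of these data known.

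Neat1 is the scaffold of the paraspeckle, a nuclear body that forms only around its long transcript. Sfpq, Nono and Pspc1 form one family of RNA-binding proteins that coat this transcript, Rbm14 bridges the parts of the body, and Tardbp and Matr3 are RNA-binding proteins that associate with it. Malat1 lies in the adjacent nuclear speckle, a store of splicing factors, and is among the most abundant nuclear RNAs of mammalian cells. Alkbh5, the gene deleted here, encodes an enzyme that removes the methyl mark m6A from RNA inside the nucleus, and Malat1 is a well known carrier of that mark.

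The cells were alveolar type 2 (AT2) cells, the surfactant-producing progenitors of the lung alveolus, sorted by their green reporter on day 14 after bleomycin injury. Control mice (Ctrl) were Alkbh5 flox/+ and knockout mice (A5-CKO) were Alkbh5 flox/flox, and both carried Sftpc-CreERT2 and Rosa26-mTmG and received tamoxifen and bleomycin, with 2 libraries per group. The controls, which were littermates, thus also recombine 1 of their Alkbh5 alleles, the recombinase acts only where the Sftpc promoter is active, and the age of the mice is not given in the labels. RNA was total RNA, made into libraries with a SMARTER mRNA-seq kit.

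The libraries held between 18144865 and 20811757 counts, and 3 counts, taken as the floor of detection, corresponded to between 0.128 and 0.177 normalized counts (CPM, reads of a gene scaled to a common library size with TMM factors). Where 4 values are given in library order, the first and the second Ctrl library come before the first and the second A5-CKO library. Alkbh5, at 81.6, 152, 19.3 and 36.5 CPM in library order, was lower in the A5-CKO libraries. All 11 AT2 markers were detected. Their summed level was 66642 and 92547 CPM in the Ctrl libraries and 49062 and 40639 CPM in the A5-CKO libraries. For 8 of the 11 the A5-CKO libraries lay wholly below the Ctrl libraries, as they did for 23.5% of the 16661 genes tested. Markers of macrophages (201 to 1267 CPM summed) and of B and plasma cells (411 to 2313 CPM) were highest in Ctrl 1 and A5-CKO 2 and so did not follow genotype. A5-CKO 1 stood apart for the RNAs described here: ncRNA rows took 2.61% of its counts and between 1.47% and 1.68% in the other libraries. These rows include Malat1 and Neat1, which made up 25.5% of ncRNA counts in A5-CKO 1 and between 6.28% and 13.7% in the other libraries. Values without A5-CKO 1 are given beside results that moved most when it was left out. In sorted bulk RNA, fewer cells of a kind and less RNA per cell cannot be told apart. With 2 libraries per group, no permutation of the labels gives a two-sided p under 0.333, and since the labels do not say whether the libraries are separate mice, the spread between them may be partly technical.

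Malat1 and Neat1 lie side by side on chromosome 19 (GRCm38.p6). Malat1 runs from 5795690 to 5802672 and Neat1 from 5824708 to 5845480, both on the minus strand, with 22036 bp and no annotated gene between them. Malat1 and the long Neat1 transcript do not end in a normal poly(A) tail. RNase P cuts both ahead of a small tRNA-like RNA. The new end is held in a triple helix made of a pair of U-rich motifs and an A-rich tract. The sequences show why the ends are discussed together. Capitals mark TTTCTTTT and TTTTGCTTTT, the U-rich motifs, and AAAAAGCAAAA, the part of the A-rich tract shared by both RNAs. Each was cut from one of the 3 runs of 11 bases or more that the Malat1 and Neat1 windows have in common. These runs are 13, 16 and 11 bases long. The windows are the 130 bases before the mascRNA (chr19:5795982-5796111), the mascRNA itself (chr19:5795924-5795981, no capitals) and the last 130 bases of the long Neat1 transcript (chr19:5824708-5824837), all on the minus strand of GRCm38 from GENCODE M21.
Malat1 end: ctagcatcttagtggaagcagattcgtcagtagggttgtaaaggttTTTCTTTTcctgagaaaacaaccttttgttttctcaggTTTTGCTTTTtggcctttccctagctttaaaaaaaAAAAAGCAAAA
mascRNA: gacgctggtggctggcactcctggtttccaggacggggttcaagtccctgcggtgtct
Neat1 end: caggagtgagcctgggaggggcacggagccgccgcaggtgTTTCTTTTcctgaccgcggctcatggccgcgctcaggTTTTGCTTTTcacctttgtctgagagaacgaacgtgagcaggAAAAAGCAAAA

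Read on the transcript strand alone, these motifs are uncommon at transcript ends. Among the longest transcripts of 15237 tested genes, the last 130 bases held TTTCTTTT in 2.38%, TTTTGCTTTT in 0.151% and AAAAAGCAAAA in 0.0788%. Exactly 1 of the 15237 held all 3, and it was Neat1. The motifs were cut from runs in this same Neat1 end, so it held them by construction. The annotated Malat1 transcript runs on past the mascRNA, so its motifs lie further from its annotated end. A match is a description of these letters only.

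The m6A mark is placed mostly in short motifs, of which GGACT, read here on the DNA, is the best known. On the transcript strand, the Malat1 transcript held 9 of them (1.29 per kb) and the long Neat1 transcript 23 (1.11 per kb). Neither density stood out, since 90.6% of 15237 transcripts held GGACT at a median of 1.03 per kb, and the 1993 transcripts of 6000 bases or more had a median of 0.975 per kb. Among the protein genes, Nono was densest (5 matches, 1.95 per kb) and Pspc1 sparsest (1 match, 0.243 per kb). The shortest stretches with the most matches within 300 bases are shown as examples of the motif in each RNA, with GGACT in capitals. In Malat1, 4 matches fall within 281 bases (chr19:5801283-5801563), and in Neat1, 3 fall within 173 bases near the 5′ end (chr19:5844960-5845132). Another 3 of the 23 lie close together near the 3′ end of Neat1.
Malat1 stretch: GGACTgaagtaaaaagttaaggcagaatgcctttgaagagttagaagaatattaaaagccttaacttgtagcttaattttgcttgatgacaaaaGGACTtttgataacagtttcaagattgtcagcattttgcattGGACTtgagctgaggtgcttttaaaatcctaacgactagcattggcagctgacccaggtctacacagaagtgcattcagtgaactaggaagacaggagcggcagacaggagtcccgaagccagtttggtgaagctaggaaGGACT
Neat1 stretch: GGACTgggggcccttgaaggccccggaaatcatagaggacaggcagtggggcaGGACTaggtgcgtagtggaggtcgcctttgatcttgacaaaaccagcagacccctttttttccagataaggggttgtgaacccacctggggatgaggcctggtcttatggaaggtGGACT
The counts carry no measurement of m6A at these letters.

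**Figure D1:**
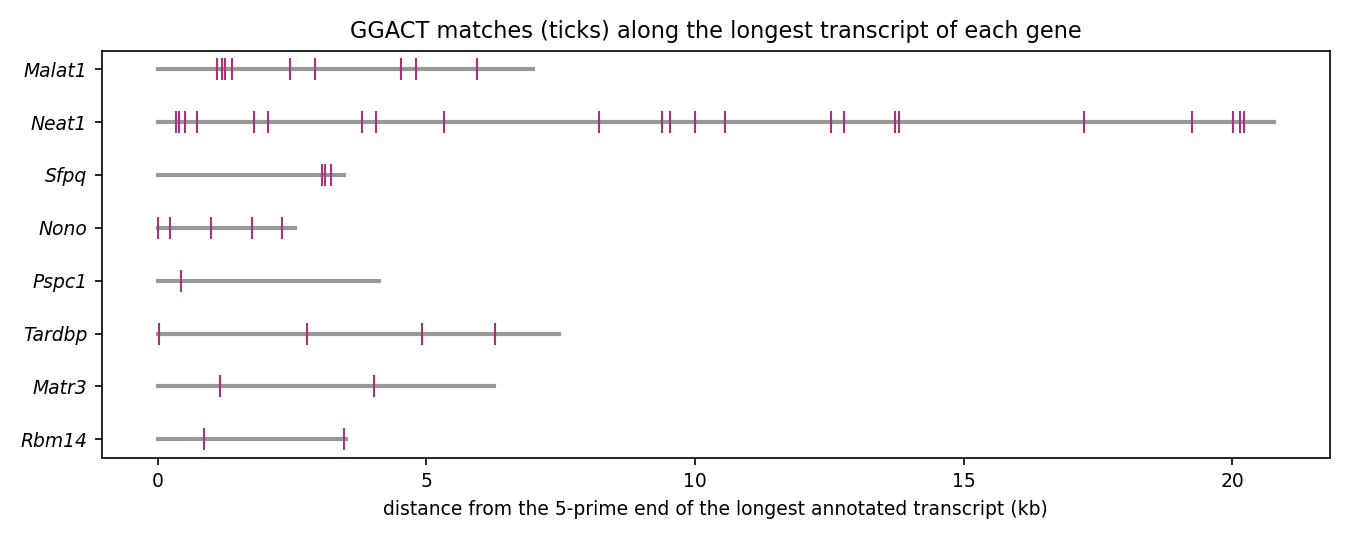
Matches to GGACT (ticks) along the longest annotated transcript of each of the 8 genes (grey lines), with the distance from the 5′ end in kb on the x axis. Malat1 has 9 matches, 4 of them close together, and the 20771-base Neat1 transcript has 23 spread along its length.

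Malat1 was higher in both A5-CKO libraries, by very different amounts. It had 721, 620, 3602 and 1302 CPM in library order. The Ctrl libraries lay close together (671 ± 71.5 CPM, SD, n = 2), while the A5-CKO libraries (2452 ± 1626 CPM) differed from each other 2.77-fold. A5-CKO 2, the lower of them, was still 1.80 times the higher Ctrl library. The raw counts were 12215, 10674, 79662 and 30501, which made Malat1 the 170th and 221st most counted gene of the Ctrl libraries and the 8th and 37th of the A5-CKO libraries. Its share of all counts does not depend on scaling. That share was 0.0673% (95% Wilson interval 0.0661 to 0.0685) in Ctrl 1, 0.0534% (0.0524 to 0.0544) in Ctrl 2, 0.399% (0.396 to 0.401) in A5-CKO 1 and 0.147% (0.145 to 0.148) in A5-CKO 2, where the intervals cover counting error only. The log2 fold change over all 4 libraries was 1.87 (SE 0.54), and it was 0.95 without A5-CKO 1.

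Neat1 showed the same order of genotypes and the same high library. It had 458 and 490 CPM in the Ctrl libraries (474 ± 22.5, SD, n = 2), and 2410 and 749 CPM in the A5-CKO libraries (1579 ± 1175). The groups did not overlap. A5-CKO 1 exceeded A5-CKO 2 by 3.22-fold, which in turn was 1.53 times the higher Ctrl library. Neat1 ranked 324th and 306th by count in the Ctrl libraries and 16th and 99th in the A5-CKO libraries. The log2 fold change was 1.74 (SE 0.57), and it was 0.65 without A5-CKO 1. The row pools reads of the short and the long Neat1 transcript, which cannot be told apart here because the short one lies wholly within the 5′ part of the long one.

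Between them, Malat1 and Neat1 took 0.110%, 0.0955%, 0.665% and 0.231% of all counts in library order. Within the counts of ncRNA rows alone, their part was 7.47% and 6.28% against 25.5% and 13.7%. The ratio of Malat1 to Neat1 counts changed little, at 1.57, 1.27, 1.49 and 1.74 in library order. The genotypes overlapped in this ratio, so the large difference between libraries was shared by both RNAs.

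The mascRNA did not separate by genotype. Its row, which lies inside Malat1 (chromosome 19, 5795924 to 5795981), held 122, 72, 463 and 96 counts in library order, or 7.20, 4.18, 20.9 and 4.10 CPM. It was thus high in A5-CKO 1 only, and A5-CKO 2 was the lowest of the 4 by CPM. The mascRNA is far shorter than a usual library insert and overlaps the annotated Malat1 transcript, so its reads cannot be told apart from those of uncut Malat1 RNA.

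**Figure D2:**
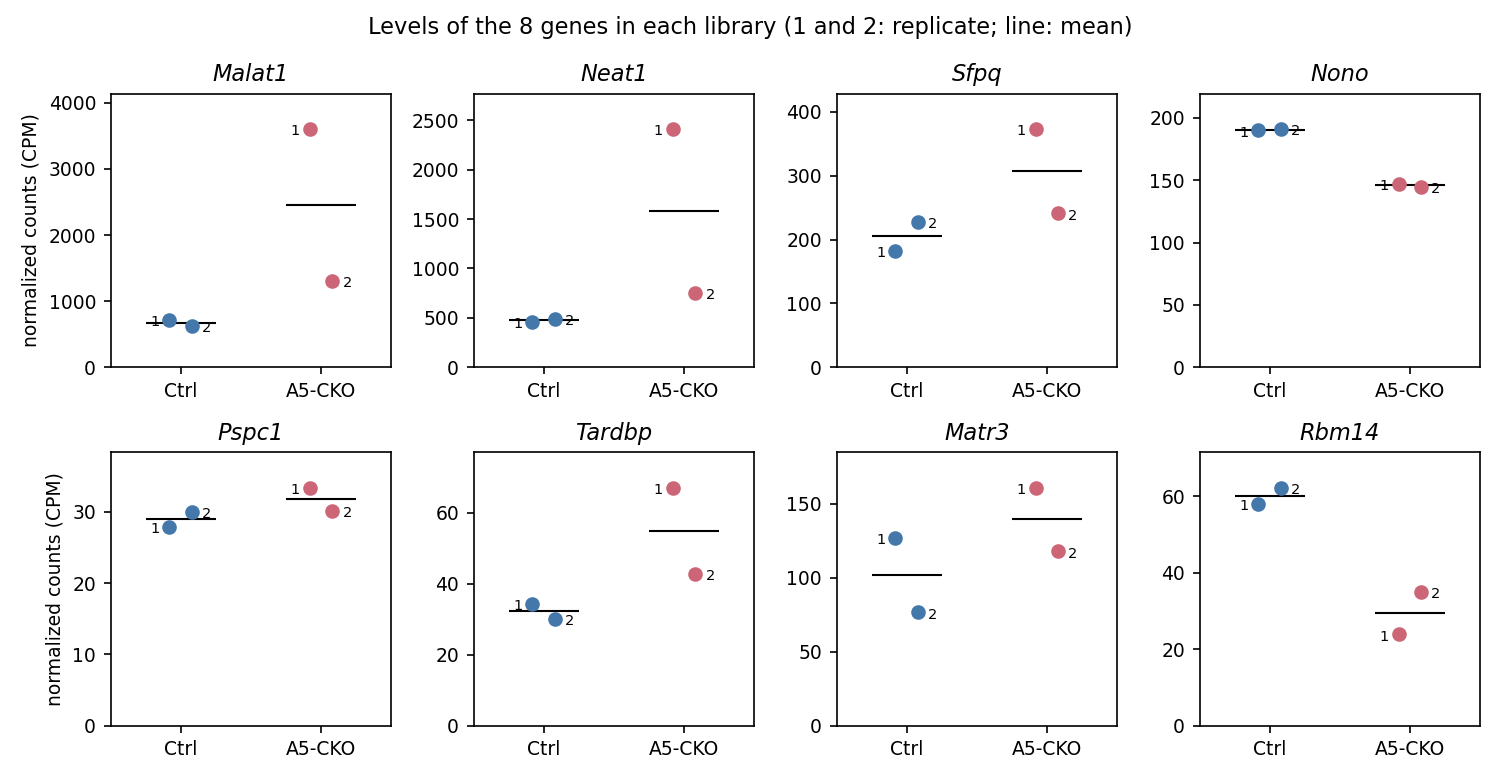
Normalized counts (CPM, linear axis from 0, own scale per gene) of the 8 genes in the 2 Ctrl and 2 A5-CKO libraries, numbered by replicate, with a line at each group mean. A5-CKO 1 is the highest library for Malat1 (3602 CPM), Neat1 (2410 CPM), Sfpq, Tardbp, Matr3 and Pspc1 and the lowest for Rbm14 (23.9 CPM).

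The 6 protein genes had smaller fold changes, in both directions. For comparison, 20.3% of the 16661 genes tested had both A5-CKO libraries above both Ctrl libraries and 23.5% had both below. Of the 6 protein genes, 3 lay above (Sfpq, Pspc1 and Tardbp), 2 lay below (Nono and Rbm14) and Matr3 overlapped. By the quasi-likelihood test of edgeR, with p-values adjusted after Benjamini and Hochberg, none of the 6 passed the threshold of 0.05, nor did any gene tested (0% called). DESeq2 called 0.328% of 17352 genes and none of the 6. At an unadjusted p under 0.05, edgeR called 9.18% of all genes tested and 1 of the 6, Rbm14, which was lower (4.71% of all genes were called lower and 4.48% higher). Without A5-CKO 1 the log2 fold change of Rbm14 was -0.79. With total counts alone edgeR called 2 of the 6 higher (Sfpq and Tardbp) and 0 lower at the unadjusted threshold. The median log2 fold change of the 6 was 0.29, beside -0.02 over all genes tested. It was 0.12 without A5-CKO 1, 0.12 without Ctrl 2, 0.60 with total counts alone and -0.20 after a correction for GC content and length.

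Sfpq, Nono and Pspc1 are the core proteins of the paraspeckle and pair with one another. Sfpq (chromosome 4, 127020716 to 127051101), which the body needs in order to form, had 182, 228, 373 and 241 CPM in library order. A5-CKO 1 stood well above the rest, whereas A5-CKO 2 exceeded Ctrl 2 only slightly. The log2 fold change was 0.58 (SE 0.36, 95% interval -0.26 to 1.43, adjusted p = 0.584 from edgeR), and it was 0.22 without A5-CKO 1.

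Nono (chromosome X, 101429560 to 101448593), its usual partner, was lower in both A5-CKO libraries. It had 190 and 191 CPM in the Ctrl libraries and 147 and 145 CPM in the A5-CKO libraries. Libraries of a genotype almost coincided, and the raw counts of all 4, from 3217 to 3392, were nearly equal, so the gap was small before the libraries were scaled. With total counts alone the log2 fold change was -0.07, and with TMM it was -0.39 (SE 0.29, 95% interval -1.07 to 0.29, adjusted p = 0.642 from edgeR).

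Pspc1 (chromosome 14, 56722441 to 56778318), the least abundant of this family, had 27.9, 30.0, 33.4 and 30.1 CPM in the same order. Ctrl 2 and A5-CKO 2 were almost equal, so the groups barely separated. Its log2 fold change was 0.13 (SE 0.32, 95% interval -0.62 to 0.88, adjusted p = 0.897 from edgeR), and it was 0.04 without A5-CKO 1 and -0.24 after the GC and length correction. Proportions within the family are given without a test. Sfpq counts per Nono count were 0.957, 1.19, 2.55 and 1.66 in library order, without overlap and highest in A5-CKO 1. Sfpq per Pspc1 was 6.51, 7.60, 11.2 and 8.01, with little between Ctrl 2 and A5-CKO 2. These ratios within a library are free of the scaling, but not of differences in gene length or base composition.

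Tardbp, which encodes TDP-43, a regulator of splicing and of Neat1 processing, lies on chromosome 4 (148612382 to 148627084). It had 34.3 and 30.2 CPM in the Ctrl libraries and 67.1 and 42.8 CPM in the A5-CKO libraries, which lay apart. The log2 fold change was 0.77 (SE 0.34, 95% interval -0.04 to 1.58, adjusted p = 0.528 from edgeR). It was 0.40 without A5-CKO 1 and 0.20 after the GC and length correction.

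Matr3 (chromosome 18, 35562158 to 35592045) encodes matrin 3, a nuclear matrix protein that binds RNA. It had 127, 76.7, 161 and 118 CPM in library order. Ctrl 1 exceeded A5-CKO 2, so the groups overlapped. The log2 fold change of 0.46 (SE 0.36, 95% interval -0.40 to 1.31, adjusted p = 0.661 from edgeR) rested on which Ctrl library was used, being 0.92 without Ctrl 1 and 0.09 without Ctrl 2. It was 0.21 without A5-CKO 1 and -0.15 after the GC and length correction.

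Rbm14 (chromosome 19, 4800566 to 4811634), whose protein joins the subunits of a paraspeckle, was the protein gene that differed most. It had 58.0 and 62.3 CPM in the Ctrl libraries (60.2 ± 3.08, SD, n = 2) and 23.9 and 35.0 CPM in the A5-CKO libraries (29.4 ± 7.87). The groups lay well apart, with A5-CKO 1, the library highest in Malat1, the lowest. The log2 fold change was -1.03 (SE 0.33, 95% interval -1.81 to -0.26, unadjusted p = 0.0164, adjusted p = 0.528 from edgeR), and it was -0.79 without A5-CKO 1. The row of Gm21992, a gene that starts at the same promoter and shares exons with Rbm14, had 31.0, 31.8, 23.6 and 24.2 CPM. Reads on shared exons could be credited to either gene or to none, and Rbm14 counts per Gm21992 count were 1.87 and 1.96 in the Ctrl libraries and 1.01 and 1.45 in the A5-CKO libraries.

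**Figure D3:**
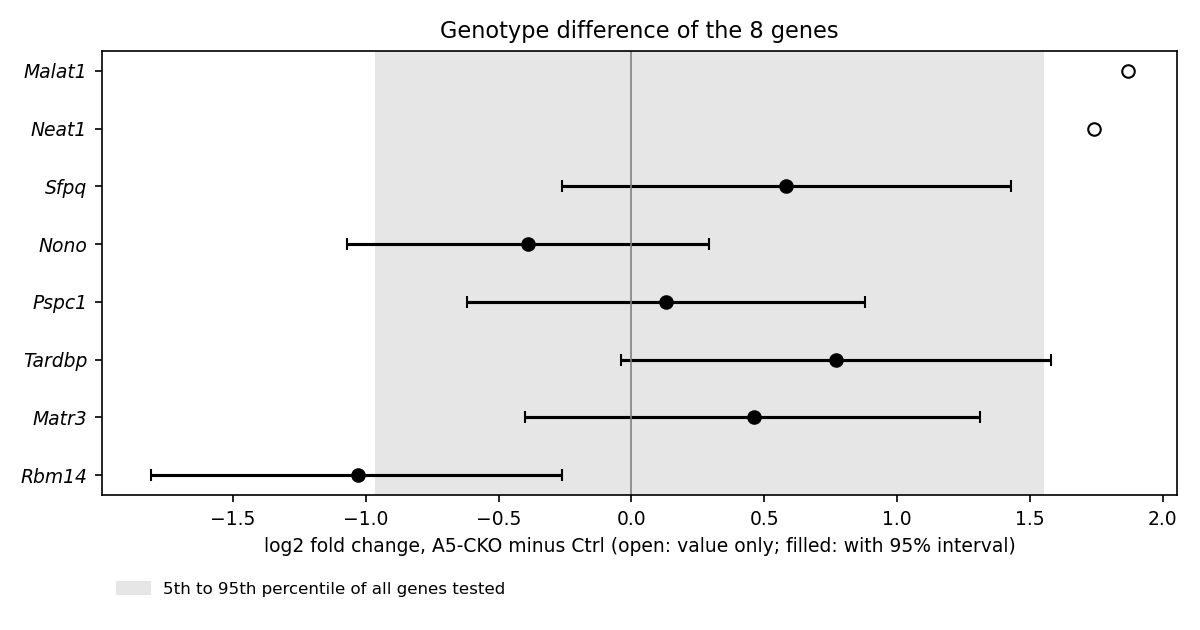
Log2 fold change (A5-CKO minus Ctrl) of the 8 genes, with 95% intervals for the 6 protein genes and open points without interval for Malat1 and Neat1, over a grey band from the 5th to the 95th percentile of all genes tested (-0.96 to 1.55). Malat1 (1.87) and Neat1 (1.74), whose levels prompted the choice of the set, lie above the band. Rbm14 (-1.03) lies just below it.

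The promoters are shown for Malat1 and Rbm14 because these genes had the largest differences in either direction among those with a promoter window at hand (6 of the 8 genes, RefSeq, GRCm38.p6, 250 bases before to 50 bases after the start). Capitals mark TGACG, the core of a CREB/ATF site, in Malat1 (chr19:5802623-5802922) and CCAAT, the core of an NF-Y site, in Rbm14 (chr19:4811585-4811884), each on either strand as CGTCA or ATTGG and in the gene's own direction, on the minus strand.
Malat1 promoter: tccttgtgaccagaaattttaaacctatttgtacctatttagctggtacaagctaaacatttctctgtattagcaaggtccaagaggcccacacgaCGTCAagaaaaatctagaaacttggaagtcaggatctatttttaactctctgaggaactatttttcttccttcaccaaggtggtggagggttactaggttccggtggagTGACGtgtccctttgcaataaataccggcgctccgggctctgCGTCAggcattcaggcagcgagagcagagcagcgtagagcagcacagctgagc
Rbm14 promoter: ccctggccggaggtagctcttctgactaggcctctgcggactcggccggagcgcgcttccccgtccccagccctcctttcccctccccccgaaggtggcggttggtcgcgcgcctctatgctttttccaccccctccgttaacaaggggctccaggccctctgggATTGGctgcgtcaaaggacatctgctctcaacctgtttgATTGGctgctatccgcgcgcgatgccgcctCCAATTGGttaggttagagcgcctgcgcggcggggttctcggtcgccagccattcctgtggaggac

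The Malat1 window held 3 TGACG and 0 CCAAT. The Rbm14 window held 4 CCAAT, of which 1 pair overlaps in CCAATTGG, and 1 TGACG, which is not in capitals. Of all 32851 windows of 300 bases, 20.8% held TGACG and 1.03% held 3 or more, and 37.4% held CCAAT and 3.37% held 3 or more. Sfpq also held 4 CCAAT, Nono 2, Pspc1 1 and Tardbp 0, and none of these held TGACG. Sfpq and Rbm14, with 4 CCAAT each, had log2 fold changes of 0.58 (interval -0.26 to 1.43) and -1.03 (interval -1.81 to -0.26). The interval of Sfpq includes 0, so its direction is uncertain. A relation between the CCAAT count and direction was not tested.

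Per kb of exon, the levels of the 8 genes spanned a wide range in Ctrl cells. Malat1 was highest at 96.1 ± 10.2 CPM per kb (SD, n = 2), followed by Nono (43.6 ± 0.238) and Sfpq (43.2 ± 6.87), which did not differ beyond their spread. Neat1 (22.8 ± 1.08), Rbm14 (15.4 ± 0.787), Matr3 (10 ± 3.47), Pspc1 (5.05 ± 0.253) and Tardbp (4.13 ± 0.377) came next, each without overlap with its neighbour. This order depends on the length used. Per kb of the longest transcript, Nono (74.2 and 74.7) lay above Sfpq (52.5 and 65.8), and Matr3 (20.2 and 12.2) overlapped Rbm14 (16.5 and 17.8). Neat1, divided by the 20771 bases of its long transcript, thus stood below both of its main binding proteins on this scale. Its row pools the short and the long transcript, in shares that cannot be told here. To the extent that reads came from the short one, this level per kb is too low. The same limit applies to its place in A5-CKO cells. Malat1 and the long Neat1 transcript also lack a normal poly(A) tail, and how the mRNA-seq kit captured such RNA is not known here. Their place beside the protein genes is thus uncertain in both genotypes.

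In A5-CKO cells the order changed. Malat1 was at 351 ± 233 CPM per kb and Neat1 at 76.0 ± 56.5, and Neat1 overlapped Sfpq (64.7 ± 19.8). Nono followed (33.3 ± 0.289), then Matr3 (13.7 ± 2.97). Rbm14 (7.53 ± 2.01) overlapped Tardbp (7.05 ± 2.21), which in turn overlapped Pspc1 (5.53 ± 0.415). Rbm14 thus lay below Matr3 in both A5-CKO libraries, also per kb of the longest transcript (6.81 and 9.98 against 25.7 and 18.9). On that scale Neat1 (116 and 36) also overlapped Nono (57.2 and 56.5), and Rbm14 overlapped Pspc1 (8.12 and 7.3).

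Other proteins reported in paraspeckles were read as a list of 32 genes, of which 31 were tested. This list and those below were chosen with earlier results of these data known, so their direction is no independent evidence. By log2 fold change 23 were higher and 8 lower in A5-CKO, where 49.1% of all genes tested were higher, with a median of 0.21. Without A5-CKO 1 the split was 12 higher and 19 lower, with a median of -0.06, and without Ctrl 1 the median was 0.07. Without Ctrl 2 and without A5-CKO 2 it was 0.50. Groups lay apart upward in 5 and downward in 3, where 20.3% of all genes tested lay apart upward and 23.5% downward. These shares apply to each list below. So do the 4.48% of all genes called higher and 4.71% called lower at an unadjusted p under 0.05 by edgeR. After adjustment edgeR and DESeq2 called 0 of the 31, and 1 was higher at an unadjusted p under 0.05 by edgeR: Cpsf6, a cleavage factor that steers poly(A) site choice on Neat1, with 60.1, 55.4, 137 and 81.0 CPM in library order (log2 fold change 0.91, SE 0.34). Its partner Nudt21 had 36.9, 27.0, 20.9 and 24.6 CPM (log2 fold change -0.49, SE 0.35), which did not pass the unadjusted threshold, and Cpsf7, another subunit, had a log2 fold change of 0.53 (SE 0.33). Without A5-CKO 1, Cpsf6 was at 0.48.

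Proteins of the nuclear speckle, where Malat1 resides, were higher in A5-CKO by log2 fold change in 17 of 18 (median 0.58). They lay apart upward in 7 and downward in 1, where 20.3% and 23.5% of all genes tested did. Of these 18, A5-CKO 1 was the highest library for 14, against 27.8% of all genes tested, and without it the median was 0.11 with 14 higher and 4 lower. None passed the adjusted threshold by edgeR or DESeq2. At an unadjusted p under 0.05 by edgeR, 3 were higher, as were 4.48% of all genes tested. Rbm25, a regulator of splice site choice, had 59.4, 46.3, 169 and 92.5 CPM. Pnn, a speckle protein of the exon junction, had 35.3, 27.3, 131 and 44.4 CPM. Sf3b1, the core of the U2 particle of the spliceosome, had 173, 151, 334 and 251 CPM. All 3 were highest in A5-CKO 1 and lay apart. Without A5-CKO 1 the log2 fold changes of Rbm25, Pnn and Sf3b1 went from 1.31, 1.48 and 0.85 to 0.80, 0.49 and 0.62.

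Other nuclear long non-coding RNAs behaved like Malat1 and Neat1 in sign and in library. This list too was written with earlier results of these data known, so its direction is no independent evidence. Of 15 named, 14 had a row and 10 were tested: all 10 were higher by log2 fold change (median 1.71) and 6 lay apart upward. A5-CKO 1 was highest in 9, against 27.8% of all genes tested. By edgeR 0 passed the adjusted threshold and 5 were higher at an unadjusted p under 0.05, as were 4.48% of all genes tested. DESeq2 called 1 (Xist) after adjustment. Without A5-CKO 1 the median was 0.41, with 7 higher and 3 lower. The median was 1.44 without Ctrl 1 and 1.55 without Ctrl 2, and after the GC and length correction 7 were higher and 3 lower with a median of 1.33.

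Xist, which coats the inactive X chromosome, had 149, 123, 804 and 390 CPM in library order (log2 fold change 2.14, SE 0.44, and 1.51 without A5-CKO 1). The methods do not state the sex of the mice, and its part in the Xist level was not tested. Firre, a repeat-rich RNA of the X chromosome, had 21, 43.1, 165 and 44 CPM, and its value of 1.70 became 0.45 without A5-CKO 1. Pvt1, the RNA next to Myc, had 2.07, 0.755, 4.30 and 5.81 CPM and was the one highest in A5-CKO 2. Tsix, antisense to Xist, had 5.96, 7.73, 32.1 and 12.9 CPM, but how the counting treated strand is unknown, and reads of Xist could reach its row. Without A5-CKO 1, Pvt1 had a log2 fold change of 2.03 and Tsix of 0.90.

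Long non-coding RNAs that host snoRNAs or act in the cytoplasm did not share this. Of 12 tested, 6 were higher and 6 lower (median -0.03), 0 lay apart upward and 1 downward, and 0 had even an unadjusted p under 0.05 by edgeR or DESeq2. The balance moved with single libraries: it was 9 higher and 3 lower without Ctrl 1 (median 0.46), 3 and 9 without Ctrl 2 (-0.50) and 3 and 9 without A5-CKO 1 (-0.38). Norad, a cytoplasmic decoy for Pumilio proteins, had 111, 199, 181 and 154 CPM. Gas5, a snoRNA host, had 105, 51.9, 118 and 58.0 CPM. In both, the groups overlapped. The difference between this list and the nuclear list was not tested.

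The factors that process Malat1 and Neat1 ends were lower more often than higher by log2 fold change. Of 12 tested, 4 were higher and 8 lower, with a median of -0.25. This median became 0.08 with total counts alone, -0.13 without Ctrl 1, -0.41 without Ctrl 2 and -0.40 without A5-CKO 2. Groups lay apart upward in 1 and downward in 5, where 20.3% and 23.5% of all genes tested did. EdgeR and DESeq2 each called 0 after adjustment. Pop5, a subunit of RNase P, was the 1 lower at an unadjusted p under 0.05 by edgeR, as were 4.71% of all genes tested. It had 39.4, 30.9, 19.5 and 19.8 CPM (log2 fold change -0.84, SE 0.33). Without A5-CKO 1 the median of the list was -0.20. Elac2, the enzyme that trims the mascRNA, had 33.7, 54.6, 36.2 and 37.2 CPM, and Mettl16, which binds the Malat1 triple helix, had 25, 27.3, 31.1 and 23.8 CPM. Both overlapped between genotypes.

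Most genes around the locus did not follow Malat1 and Neat1. Among the 5 annotated genes on each side, 2 were higher and 8 lower (median -0.43, and -0.10 with total counts alone). Groups lay apart upward in 1 and downward in 5, where 20.3% and 23.5% of all genes tested did. A5-CKO 1 was the highest library for 0 of the 10, against 27.8% of all genes tested. Frmd8, 5494 bp from Neat1, had 100, 94.8, 66.4 and 94.7 CPM. Fam89b was lower at an unadjusted p under 0.05, with 75.8, 56.4, 30.2 and 42.1 CPM (log2 fold change -0.87). Tigd3 was higher at that level on few reads, 8, 10, 40 and 45 counts, with a log2 fold change of 1.81. Neither passed the adjusted threshold by edgeR, and DESeq2 called 0 of the 10. The median of the 10 was -0.37 without Ctrl 1, -0.39 without Ctrl 2, -0.50 without A5-CKO 1 and -0.44 without A5-CKO 2.

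**Figure D4:**
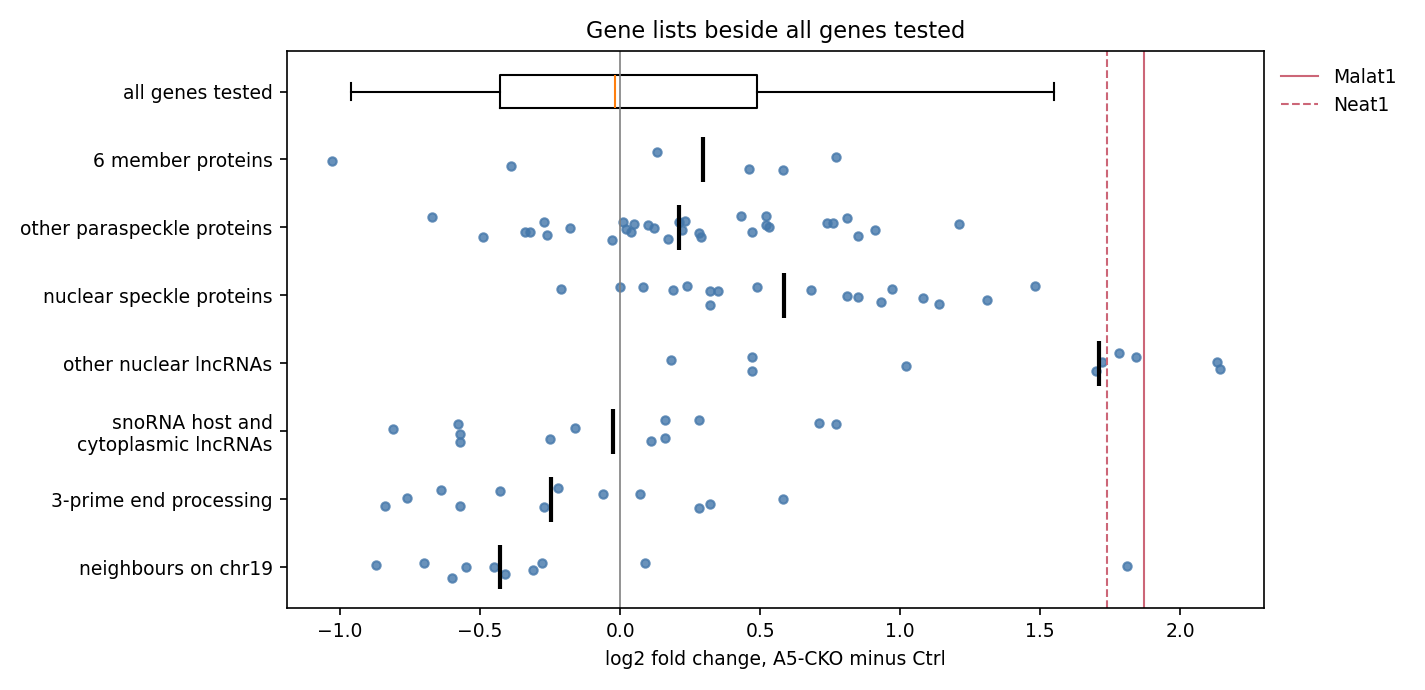
Log2 fold change (A5-CKO minus Ctrl, x axis) of each tested gene (points) of the 7 gene lists (rows), with list medians as black bars, the values of Malat1 and Neat1 as vertical lines, and a box for all genes tested (box: quartiles, whiskers: 5th to 95th percentile). Medians run from -0.43 for the neighbours on chromosome 19 to 1.71 for the other nuclear long non-coding RNAs.

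To see which genes shared the profile over the 4 libraries, log2 CPM values were centred per gene and compared by Euclidean distance among 9912 tested genes with a mean of at least 10 CPM. The nearest to Malat1 were Klf6 (distance 0.25), Zcchc7 (0.26), Ccnl1 (0.28), Cntrl (0.31) and Srek1 (0.33), beside a median distance of 2.22. The nearest to Neat1 were Luc7l2 (0.14), Pnisr (0.14), Cntrl (0.24), Ccr7 (0.24) and Klf6 (0.25), beside a median of 2.13. Klf6, for example, had 189, 164, 813 and 285 CPM, and Luc7l2 had 89.1, 97.6, 421 and 142 CPM. Each of Malat1 and Neat1 ranked 6th for the other, at a distance of 0.33.

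The protein genes were spread over the whole of this order. To Malat1, Tardbp ranked 289th (distance 1.12), Sfpq 633rd (1.34), Matr3 904th (1.45) and Pspc1 2334th (1.83), all nearer than the median. Nono ranked 5780th and Rbm14 9544th of 9912, with distances of 2.33 and 3.11. The distance uses 4 libraries, of which A5-CKO 1 lies farthest from the rest for both RNAs, so it describes these libraries and carries no test.

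**Figure D5:**
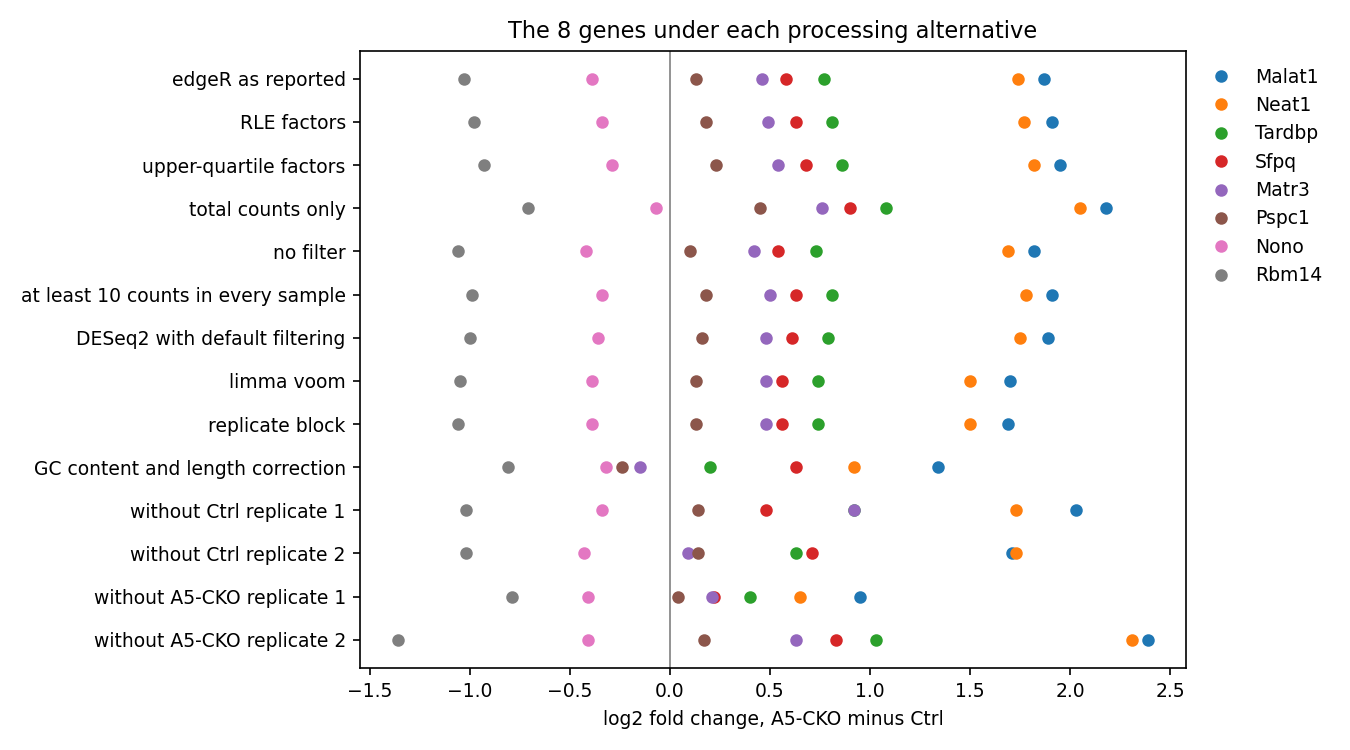
Log2 fold change (A5-CKO minus Ctrl, x axis) of the 8 genes (colours) under the edgeR fit reported here and each of 13 alternatives (rows). Malat1 and Neat1 stay above 0 throughout and are lowest without A5-CKO replicate 1 (0.95 and 0.65), Rbm14 and Nono stay below 0, and Pspc1 and Matr3 cross 0 with the GC content and length correction.

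Values per library to set beside those of Malat1 and Neat1 are these. The 2 RNAs, the ncRNA share of counts (2.61% in A5-CKO 1) and the snoRNA share (0.0209% in A5-CKO 1, and 0.00452% to 0.00841% in the others) were all highest in A5-CKO 1. The ncRNA share is not a separate value, since the 2 RNAs made up 25.5% of it in A5-CKO 1. The snoRNA share was nearly equal in Ctrl 1 (0.00829%) and A5-CKO 2 (0.00841%). The share of mitochondrial tRNA and rRNA rows was 0.407%, 0.247%, 0.367% and 0.211% and did not follow Malat1 and Neat1. Summed AT2 markers were lower in both A5-CKO libraries, by the values above. The part of library composition and of AT2 marker level in the difference of Malat1 and Neat1 was not tested. The GC content and length correction took Malat1 (GC 42.5%) from 1.87 to 1.34 and Neat1 (GC 47.3%) from 1.74 to 0.92.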

How the data were processed

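Per the labels, total RNA of AT2 cells sorted from mouse lung was made into libraries with a SMARTER mRNA-seq kit. The authors trimmed reads (Trim Galore 0.6.10), removed ribosomal reads and duplicates, aligned with HISAT2 2.2.1 to mm10 and counted reads per gene with featureCounts 2.0.3, per the submitters' processing notes and the methods, where the counting is described for another assay and was taken as that of the RNA-seq. The deposited values are raw read counts per gene, 18144865 to 20811757 per library. The strand setting is not given in the sources used here.

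The 4 libraries were grouped by genotype, 2 Ctrl and 2 A5-CKO. Counts were fitted in R 4.3.3 with edgeR 4.0.16 (TMM factors 0.933, 0.860, 1.11 and 1.13, filterByExpr, glmQLFit, glmQLFTest), with Benjamini-Hochberg adjustment over 16661 genes and a threshold of 0.05. The standard error is the log2 fold change over the square root of F. The common dispersion was 0.173, and the fit was tested on simulated data. Alternatives were DESeq2 1.42.0 (the tool of the methods), limma 3.58.1 voom, other factors, other filters, a replicate block, a GC content and length spline (15237 genes) and each library left out in turn.

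The members, lists and tests were chosen with earlier results of these data known. From the lists, genes with an unadjusted p under 0.05 were named, at most 4 per list by smallest p, and otherwise the 2 most abundant. Genes beside the locus could be named as its neighbours, and Frmd8 was. Nearest patterns were the 5 closest genes. Cpsf7, Nudt21, Elac2, Mettl16 and Gm21992 were named outside this rule, after their values were seen. The values of 1 neighbouring gene are not reported here. Lengths are exon unions of GENCODE M21. Marker lists of T and NK cells, neutrophils, fibroblasts, endothelial, club and ciliated, AT1, transitional and red blood cells were also summed: 15.5 to 45.4, 262 to 680, 94.0 to 1014, 110 to 174, 1073 to 2419, 1262 to 1505, 1085 to 2468 and 2.71 to 15.4 CPM, with Cldn5 at 0 in every library. Other data of the study were not used here.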

Additional observations from a re-analysis of the deposited data

How the results depend on the processing

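Each result was recomputed under 13 alternatives. The count of genes with an adjusted p under 0.05 was 0 in edgeR and in every other fit, but 57 in DESeq2. The count at an unadjusted p under 0.05 was 1530, 754 with the replicate number as a block and 746 to 1668 with a library left out, lowest without A5-CKO 1. Leaving out A5-CKO 1 gave the lowest values of Malat1 (0.95) and Neat1 (0.65), and leaving out A5-CKO 2 the highest (2.39 and 2.31). Over the other alternatives Malat1 ranged from 1.34 to 2.18 and Neat1 from 0.92 to 2.05, the low ends with the GC content and length correction and the high ends with total counts alone, which move the median of all genes from -0.02 to 0.30. Pspc1 turned to -0.24 and Matr3 to -0.15 with the GC content and length correction, and the cause was not tested. Sfpq, Nono, Tardbp and Rbm14 kept their direction under all 13, with Rbm14 from -1.36 to -0.71 and Nono from -0.43 to -0.07. The lowest adjusted p of these 6 genes under any alternative was 0.374, for Rbm14. With a library left out, the median of the nuclear speckle proteins ranged from 0.11 to 0.85, that of the other nuclear long non-coding RNAs from 0.41 to 1.88 and that of the other paraspeckle proteins from -0.06 to 0.50, the low ends without A5-CKO 1. With the longest transcript in place of the exon union, mean Ctrl levels per kb were 74.4 for Nono, 59.1 for Sfpq, 7.04 for Pspc1, 16.2 for Matr3 and 17.2 for Rbm14.

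The replicate numbers are shared between groups by number only: the deviations of same-numbered libraries correlated at -0.35. With the block Malat1 was 1.69 and Neat1 1.50, and none of the 6 protein genes changed its side of the adjusted threshold. The limits are the 2 libraries per group, 1 of which carries much of the nuclear RNA difference, the unstated strand setting, and overlapping rows (Malat1 with the mascRNA, Rbm14 with Gm21992, Xist with Tsix). With a library left out, the lone sample of its group is assumed to vary like the other group.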
